A study of Mus musculus with 18 samples.

Results

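Retinoic acid is the active form of vitamin A. It is made in 2 steps: alcohol and short-chain dehydrogenases turn retinol into retinal, and retinal dehydrogenases of the ALDH1A family oxidise retinal to retinoic acid. The acid binds nuclear receptors (RAR, paired with RXR) on response elements, and CYP26 enzymes degrade it. In the developing kidney this pathway acts in branching of the ureteric bud, and in the adult kidney the filtered carrier of retinol is taken back up by the proximal tubule. This report follows 9 genes of the pathway, chosen by name with earlier results of these data known. They are the retinal dehydrogenase genes Aldh1a1, Aldh1a2 and Aldh1a3, their paralogue Aldh1a7, the retinol carrier gene Rbp4, the retinal reductase genes Dhrs3 and Rdh12, and the receptor genes Rara and Rarb. All 9 were among the 78239 gene identifiers of the count tables.

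The kidneys came from CD-1 mice, labelled wild type, at 6 wk of age. Their mothers were fed either 8% protein (LP) or 18% protein (NP) through pregnancy and nursing, and all offspring ate the 18% diet after weaning. The LP diet was matched in calories with added sucrose, so less protein and more sugar cannot be told apart. The males were 5 LP and 5 NP mice, and the females 5 LP and 3 NP mice. All mice had been injected with cationic ferritin, males were killed 90 min and females 24 h after the last injection, and so sex and collection time cannot be told apart. Each library was poly(A) RNA from a piece of 1 kidney, and litters are not given for single mice. The paper's review record gives fewer litters for its adult mice than the 5 mice of a group here, so some of these mice were littermates. Diet was given to the mothers, and littermates are not independent. The P-values below treat each mouse as independent and set a difference against the spread between these libraries.

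Libraries held between 14050486 and 23562411 reads assigned to genes. Markers of the proximal tubule's first 2 segments summed to between 6701 and 12721 CPM (a gene's counts scaled to a fixed library total) in each library. LP female 1, LP female 2 and NP female 3 stood apart, with 427 to 624 CPM of glucocorticoid-response genes against 1319 or more in the other females. Their interferon-stimulated genes summed to 119 to 168 CPM, against 627 or more in the other females. NP female 3 also had the highest share of multimapping reads (12.6%, median of all libraries 6.91%) and of reads not on a single gene (36.1%, median 30.3%). Fat-cell markers (Adipoq, Plin1 and others) summed to over 55 CPM in 5 libraries: LP male 4, NP male 2, NP male 3, LP female 5 and NP female 3.

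Aldh1a1 and Aldh1a7 are neighbours on chromosome 19 (GRCm39): Aldh1a1 at chr19:20469539-20622825 on the forward strand and Aldh1a7 at chr19:20667107-20704932 on the reverse strand. Over 1506 coding bases the sequences are identical at 1380 (91.6%). The longest exact run shared by Aldh1a7 and any of the 33 annotated Aldh1a1 transcripts is 100 bases, and 151 of 5233 windows of 50 bases in Aldh1a7 occur in Aldh1a1. The upstream sequences are also alike: of the 110 bases before the RefSeq start of Aldh1a7, 104 (94.5%) are the same before the start of Aldh1a1 at position 20579332, against 32 before its farther upstream start. Because the genes are close copies and Aldh1a1 alone was called in males, coding exon 4 is printed for both, the short exon with most differences. Capitals mark the 22 of 130 bases that differ, and each run is given 5′ to 3′ on the strand of its gene, at chr19:20597333-20597462 (forward) and chr19:20696550-20696679 (reverse).
Aldh1a1: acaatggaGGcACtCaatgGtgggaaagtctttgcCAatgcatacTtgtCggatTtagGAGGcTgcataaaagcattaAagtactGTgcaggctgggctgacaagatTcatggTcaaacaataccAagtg
Aldh1a7: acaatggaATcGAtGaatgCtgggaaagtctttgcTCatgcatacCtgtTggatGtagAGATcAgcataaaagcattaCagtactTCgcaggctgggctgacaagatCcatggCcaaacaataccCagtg

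Levels within a gene are given below as normalized counts, that is, counts divided by each library's DESeq2 size factor, and levels between genes as that value per kilobase of merged exons. Dhrs3, whose enzyme reduces retinal back to retinol, had by far the highest mean of the 9 per kilobase, at 940 ± 208 (SD, n = 18). Rara followed at 61.9 ± 13.2. Aldh1a2 (25.6), Rbp4 (24.2), Aldh1a1 (23.3), Aldh1a7 (17.3) and Aldh1a3 (16.3) lay close together, with spreads wider than the gaps between them. Rdh12 (5.73) and Rarb (3.19) were the lowest. Merged exons take in every annotated isoform, 10740 bases for Aldh1a1 against 5282 for Aldh1a7, so this order depends on the annotation. Rarb also loses reads that overlap another gene, as given below.

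**Figure D1:**
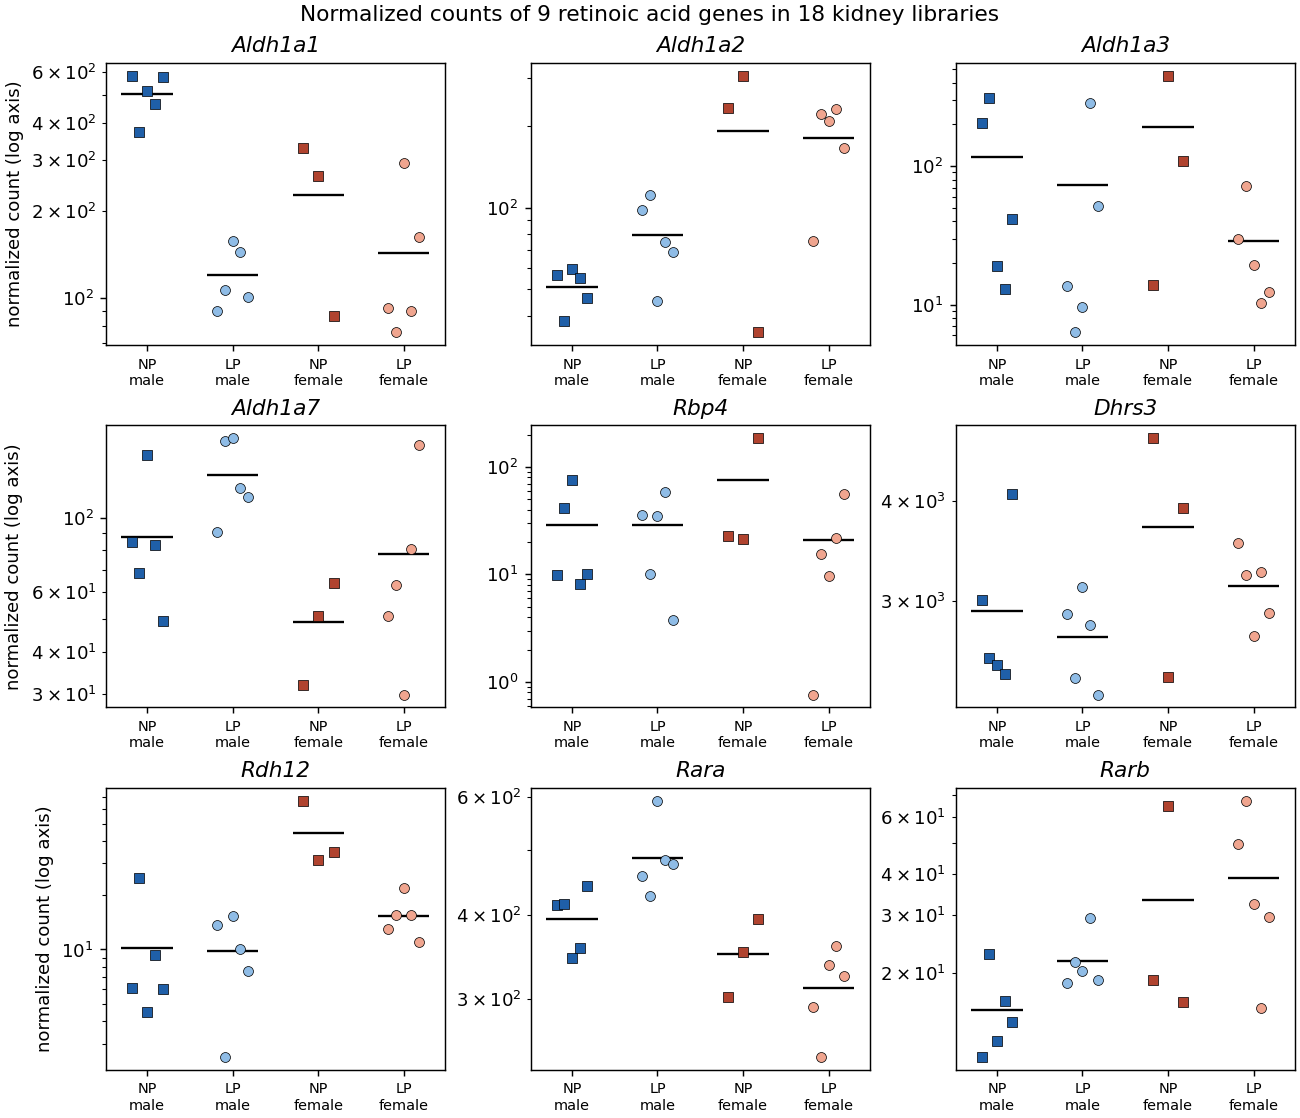
Normalized counts (log axis) of the 9 genes, 1 point for each library, with horizontal lines at the group means; squares are NP and circles LP, blue is male and red female. For Aldh1a1 the 5 LP males (90.4 to 158) all sit below the 5 NP males (374 to 583), and for Rdh12 the 5 LP females (11.04 to 21.9) sit below the 3 NP females (31.5 to 66.9).

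Aldh1a1 was lower in LP than in NP males. Normalized counts were 90.4, 106, 158, 144 and 101 in LP males 1 to 5 and 583, 374, 519, 465 and 575 in NP males 1 to 5. The groups did not overlap: the highest LP male was below the lowest NP male. On the log2 scale LP males were at −2.05 relative to NP males (SE 0.17), a 4.14-fold difference; edgeR gave an adjusted P = 0.000446 over 13181 genes, and Aldh1a1 had the smallest P of all of them. The exact two-sided permutation P was 0.00794, the smallest that 5 against 5 libraries can give. Leaving out each male in turn gave −2.16 to −1.97, and leaving out the 3 males with fat markers gave −2.22. When all 4 groups shared 1 estimate of the spread, the estimate stayed −2.05 but the adjusted P was 0.122. In whole tissue, fewer cells that express the gene and less RNA per cell cannot be told apart.

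In females the Aldh1a1 values were 92.5, 76.3, 291, 90.2 and 162 for LP and 330, 263 and 87.0 for NP. The groups overlapped at both ends: NP female 3 lay among the low LP libraries, and LP female 3 (291) lay above NP female 2 (263). Their difference, LP over NP, was −0.69 on the log2 scale (SE 0.52; adjusted P = 0.886 in edgeR). Leaving out single females moved it between −1.11 (without LP female 3) and −0.31 (without NP female 1), with −1.07 without NP female 3. LP female 1, LP female 2 and NP female 3, all low for Aldh1a1, were the libraries that stood apart by glucocorticoid-response genes, and without all 3 the value was −0.73. LP female 4 was as low for Aldh1a1 (90.2) but did not stand apart, with 1896 CPM of glucocorticoid-response genes. Subtracting the LP effect of males from that of females gave 1.36 (SE 0.53; unadjusted P = 0.0207, adjusted P = 0.977 in edgeR), so a difference between the sexes was not shown. By group mean the order was NP males (503 ± 86.4), NP females (227 ± 125), LP females (143 ± 89.7) and LP males (120 ± 29.2). The NP males overlapped with none of the NP females, and each other pair of neighbours in that order overlapped.

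The paralogue Aldh1a7 was not lower in the same LP males. Its normalized counts were 90.4, 168, 172, 122 and 115 in LP and 84.5, 68.5, 153, 83.1 and 49.4 in NP males. Most LP males lay above most NP males, but the ranges overlapped. LP males were higher by 0.62 on the log2 scale (SE 0.28; unadjusted P = 0.0483, adjusted P = 1), with an exact permutation P = 0.0714. In LP females it ranged from 29.8 to 164 and in NP females from 32.0 to 63.8 (log2 fold change 0.66, adjusted P = 0.886 in edgeR). The female value fell to 0.20 without LP female 5, the library at 164, and to −0.04 when replicate numbers entered the fit as blocks. The counting kept reads that map to 1 place only, so reads that fit both genes equally well were left out of both.

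Aldh1a2, which makes retinoic acid in stromal and mesenchymal cells, was measured at 97.9, 111, 45.2, 74.9 and 68.5 in LP males and 56.3, 38.4, 59.3, 55.02 and 46.4 in NP males. The groups overlapped through LP male 3. The fitted log2 fold change was 0.65 (SE 0.25; unadjusted P = 0.0219, adjusted P = 1 in edgeR) and the exact permutation P was 0.0635. Stromal markers were read in the same comparison: all 5 tested of 6 had a positive log2 fold change (median 0.70), 0 were called, and they summed to 96.4 to 282 CPM in LP and 76.2 to 171 CPM in NP males. All 5 distal tubule (median 0.60), all 5 podocyte (median 0.31) and all 5 endothelial markers (median 0.08) were positive too. Other kidney lists were mixed, with 4 of 5 collecting duct markers negative. The part of any of these in the Aldh1a2 values was not tested. In females the log2 fold change was −0.12 (SE 0.58).

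Aldh1a3, the third retinal dehydrogenase gene, varied more between libraries of a group than between groups. Normalized counts were 13.6, 6.3, 9.6, 287 and 51.3 in LP males and 204, 308, 19.01, 12.9 and 41.3 in NP males. They were 29.8, 71.4, 19.3, 10.4 and 12.4 in LP females and 13.99, 448 and 109 in NP females. Thus LP male 4, NP males 1 and 2, and NP females 2 and 3 were each above 100, and no other library reached 72. The gene had under 10 reads in 1 male and was left out of the male test, where the exact permutation P was 0.397. In females the log2 fold change was −2.75 (SE 0.92; unadjusted P = 0.0143, adjusted P = 0.886 in edgeR), −1.07 without NP female 2 and −0.81 in limma-voom with quality weights. Summed markers of urothelium, a pelvic lining in which the gene is known to be expressed, were 63.3 CPM in LP male 4, 4.10 in NP male 1, 39.4 in NP male 2, 57.3 in NP female 2 and 5.60 in NP female 3, the libraries with Aldh1a3 above 100. In the other 13 they were 6.45 to 107 CPM, highest in NP male 3. Their part in the Aldh1a3 values was not tested.

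Rbp4 encodes the plasma carrier of retinol and is made chiefly by liver and fat. Its normalized counts were 35.9, 10.1, 34.6, 58.7 and 3.8 in LP males and 9.8, 41.5, 76.1, 8.2 and 10.1 in NP males. They were 0.8, 15.6, 9.7, 21.8 and 55.9 in LP females and 23.0, 21.3 and 184 in NP females. The highest library of each group was one of the 5 with fat markers. Their fat sums were 109 CPM in LP male 4, 57.0 in NP male 2, 69.6 in NP male 3, 306 in LP female 5 and 212 in NP female 3, and 6.04 to 50.5 in all others. Summed liver markers stayed between 3.71 and 22.6 CPM. With too few reads for the edgeR fits, Rbp4 gave a mean log2 difference of 0.04 in males (exact permutation P = 0.968) and −1.81 in females (P = 0.268). Without LP female 5 and NP female 3 the female difference was −1.33, and without LP females 1 and 2 and NP female 3 it was 0.05.

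**Figure D2:**
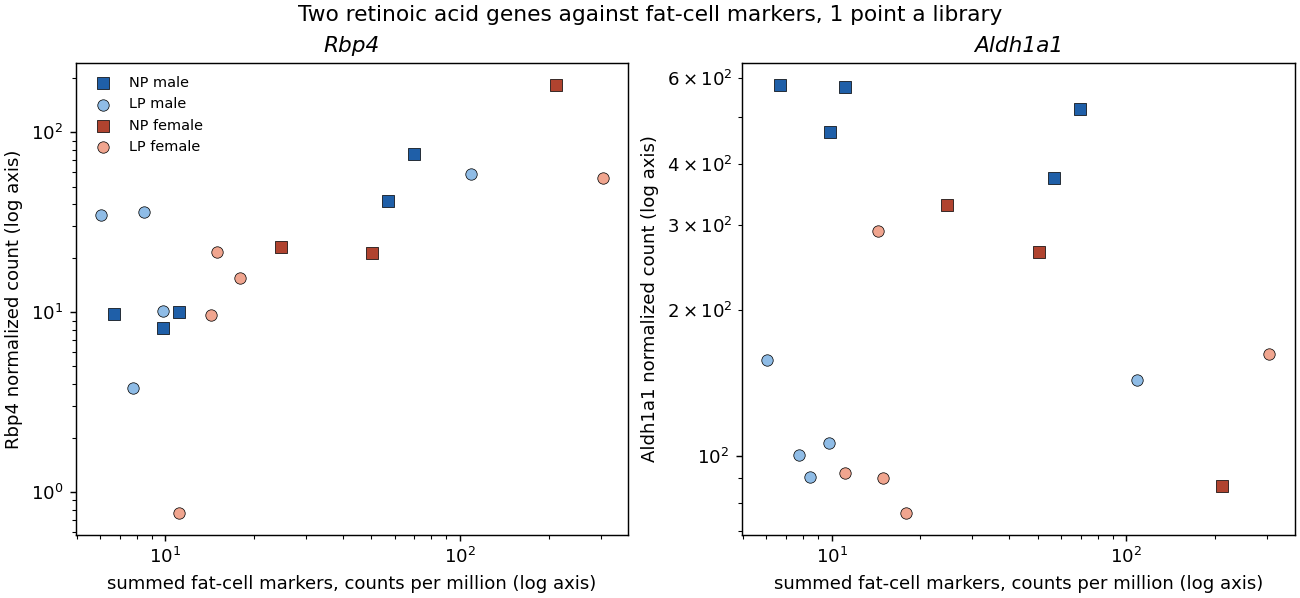
Normalized counts of Rbp4 (left) and Aldh1a1 (right) against the summed CPM of 8 fat-cell markers, all axes logarithmic, 1 point for each of 18 libraries. Rbp4 reaches 184 in NP female 3, where the markers sum to 212 CPM, whereas Aldh1a1 is 374 and 519 in the 2 NP males with fat markers and 144 in the LP male with them.

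Genes with a profile like that of Rbp4 were looked up after its values were seen. Over 18 libraries and 15678 genes with a mean of at least 10 reads, the 5 highest Pearson correlations of log2(CPM + 1) were with Kcnk3 (0.88), Adig (0.88), Adipoq (0.87), Cidea (0.87) and Fasn (0.85). Adig, Adipoq and Cidea are known for their expression in fat cells. For Aldh1a3 the same search gave Lamb3 (0.87), Atp10b, Adgrf1, Sbspon and Elf5 (0.82). For Aldh1a1, over the 12665 genes with at least 10 reads in every library, the nearest profiles were Gfra1 (0.74), Tbc1d9 (0.74), Asf1a (0.72), Plxdc2 (0.72) and Ftsj3 (0.71). Gfra1 encodes a co-receptor for GDNF. Aldh1a2 was nearest to Tle1 (0.92), Baiap2l1 and Rabgef1, Aldh1a7 to Pank3 (0.71), Asb13 and Slc35a3, Dhrs3 to Pheta1 (0.92), Tuba1b and Rps7, and Rara to Il17ra (0.74). The libraries share groups and depth, and these correlations are descriptions.

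Of the 2 reductase genes, Dhrs3 overlapped between the diets in both sexes. It ranged from 2295 to 3129 in LP and 2438 to 4081 in NP males, and from 2719 to 3550 in LP and 2412 to 4795 in NP females. The log2 fold changes were −0.10 (SE 0.15) in males and −0.26 (SE 0.21) in females, neither called. Rdh12, best known for its role in photoreceptors, was low in every library. Its normalized counts were 12.997, 15.6, 21.9, 15.5 and 11.04 in LP females and 66.9, 31.5 and 34.8 in NP females, and the groups did not overlap. Rdh12 had a log2 fold change of −1.54 (SE 0.34; unadjusted P = 0.00122, adjusted P = 0.886 in edgeR over 13510 genes), and the exact permutation P = 0.0179 is the smallest that 5 against 3 libraries can give. It ranged from −1.73 to −1.11 when single females were left out. In males Rdh12 was 13.6, 2.5, 15.4, 10.04 and 7.6 in LP and 6.1, 24.9, 4.5, 9.4 and 6.0 in NP mice (mean log2 difference 0.03, exact permutation P = 0.96).

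Among the receptors, Rara was 457, 427, 593, 484 and 476 in LP males and 414, 415, 346, 357 and 441 in NP males. Only the highest NP male reached into the LP range. Rara differed by 0.32 on the log2 scale (SE 0.11; unadjusted P = 0.014, adjusted P = 1 in edgeR), with an exact permutation P = 0.0159. In females it was −0.19 (SE 0.17), and the difference between the sexes was −0.51 (SE 0.18; unadjusted P = 0.0117, adjusted P = 0.977 in edgeR).

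Rarb, a receptor gene that retinoic acid itself induces, had 526 reads in all 18 libraries. Its normalized counts were 18.6, 21.5, 20.2, 29.4 and 19.02 in LP males and 11.02, 22.8, 12.3, 16.4 and 14.1 in NP males. NP male 2 overlapped with the LP males, and the exact permutation P was 0.0476 (mean log2 difference 0.50), while 10 of 13 alternatives took it above 0.05. Rarb shares 2612 bases of exon with Top2b on the other strand. The main counts drop reads that fall in both genes and are 24.3% of the sum over strands, which includes Top2b reads. In females Rarb ranged from 15.5 to 67.3 in LP and from 16.2 to 64.8 in NP mice.

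The known response element of Rarb is shown because it is the textbook target of the receptors. Direct repeats 5 bases apart (DR5) were sought on both strands. The repeated unit was AGGTCA, with the variants GGGTCA (its opening letter changed), AGTTCA (a later letter changed) and GGTTCA (both changed) allowed. The search ran in 300-base windows around RefSeq starts (GRCm38.p6 table, positions matched to GRCm39). A DR5 was found in 32 of 32851 windows (0.0974%). Among the 50 retinoid genes with a window, only Rarb and Cyp26a1 held one. No window of the other members with an entry held this repeat, and neither did those for spacings of 1 base (0.222% of windows) or 2 bases (0.268%). Aldh1a3 had no entry. In these runs the capitals mark the repeated units, at chr14:5894228-5894257 and chr19:37686218-37686247, both on the forward strand. A match in letters is a description and not a measured binding site.
Rarb: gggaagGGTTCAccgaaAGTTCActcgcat
Cyp26a1: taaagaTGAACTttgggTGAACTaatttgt

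Taking the members together, 5 of 9 had at least 10 reads in every male library, and 1 of these, Aldh1a1, was called (adjusted P under 0.05 and at least 1.5-fold). Over all genes 5 of 13181 were called, all lower in LP males, or 0.0379%. In females 8 of 9 members were tested and 0 were called by edgeR, DESeq2 or limma-voom. Of those 8, Rdh12 and Aldh1a3 had an unadjusted P under 0.05, and over all genes the share called was 0%, with 564 of 13510 genes (4.17%) at an unadjusted P under 0.05. In the diet by sex interaction, called on an adjusted P under 0.05 alone, 5 members were tested, 0 were called and the background was 0.0158%.

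**Figure D3:**
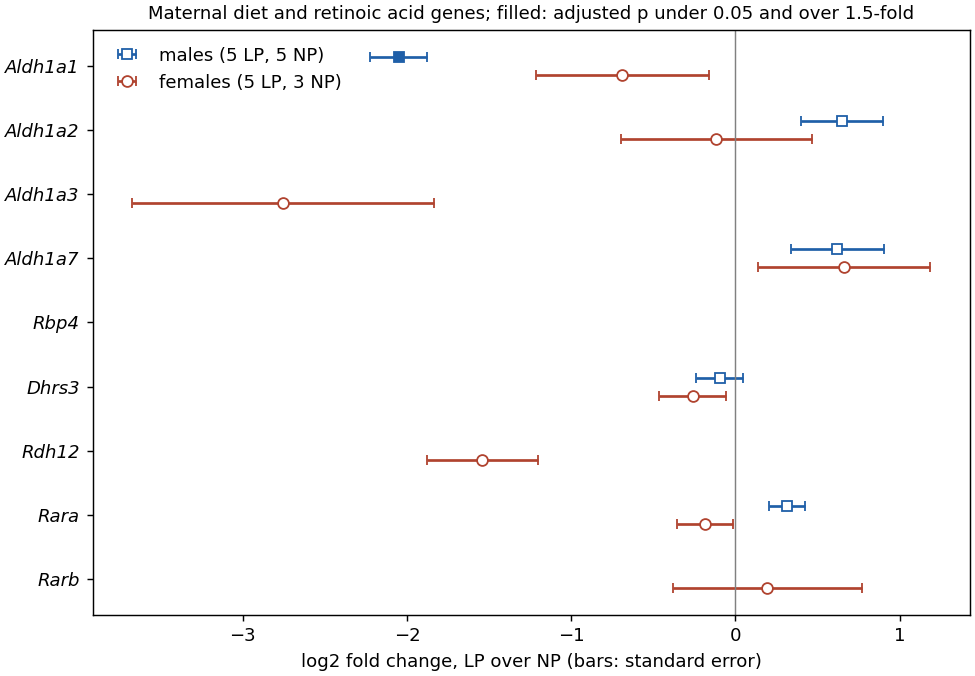
Log2 fold changes of LP over NP for each member with enough reads, as points with standard errors; blue squares are males (5 LP, 5 NP), red circles are females (5 LP, 3 NP), and filled points passed both thresholds. The Aldh1a1 point in males, at −2.05, is the only filled one; Aldh1a3, Rbp4, Rdh12 and Rarb were not tested in males and Rbp4 not in females.

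The rest of the pathway was read from 9 lists of 68 genes that include the members. Of 42 other list genes tested in males, 0 were called by edgeR and 0 had an unadjusted P under 0.05, beside 506 of 13181 genes (3.84%) in all. The median log2 fold change was 0.03, beside −0.00 over all genes. Of 44 tested in females, 0 were called and 2 had an unadjusted P under 0.05, with Hoxb5, a homeobox gene that retinoic acid regulates in embryos, having the smallest (log2 fold change −0.65, SE 0.17, unadjusted P = 0.00393, adjusted P = 0.886). Hoxb5 averaged 146 ± 16.8 in LP (n = 5) and 226 ± 22.2 in NP females (n = 3), without overlap, but it shares exon bases with an antisense transcript.

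In each role the gene with the highest level per kilobase showed small changes with diet. In uptake this was Lrp2 (megalin, 2389 per kilobase; log2 fold change −0.00 in males and 0.21 in females). In retinol oxidation it was Rdh16f2 (3947; 0.30 and −0.12) and in retinal reduction Dhrs3. In synthesis Aldh8a1, an aldehyde dehydrogenase of retinal and other substrates, stood at 888 per kilobase, above all 4 ALDH1A genes (0.08 in males and 0.04 in females). In catabolism it was Cyp2s1 (47.3; 0.12 and −0.09) and in binding Fabp5 (44.8; −0.21 and −0.08). Rxra led the receptors (435; 0.07 and 0.41), Ncoa3 the coregulators (158; −0.00 and 0.01) and Tgm2, a transglutaminase induced by retinoic acid, the response genes (683; 0.10 and 0.08). None of these was called in either sex by edgeR. The main counts drop reads that also overlap another gene. They are 57.3% of the sum over strands for Tgm2 and 66.1% for Aldh8a1. In retinol oxidation they are 99.97% of it for Rdh16f2 but 36.9% for Adh1 (1499 per kilobase). That sum can include reads of the other gene, so which of Rdh16f2 and Adh1 leads may depend on the counting. Cyp26a1, the most responsive of the degrading enzymes, stayed between 0.9 and 19.7 normalized counts in all 18 libraries.

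More of these genes were called between the sexes than between the diets. Aldh1a2 was lower in males: it ranged from 38.4 to 111 in 10 males and from 34.8 to 306 in 8 females. All females but LP female 1 and NP female 3 were above every male. The log2 fold change of males over females, with diet in the model, was −1.58 (SE 0.31, adjusted P = 0.000651 in edgeR), −1.20 in LP mice alone and −1.96 in NP mice alone. Distal tubule markers were also lower in males (4 of 5 called, with sums of 577 to 1123 CPM in males and 1289 to 1893 CPM in females). This was not particular to that segment: 4 of 5 podocyte, 4 of 5 intercalated and 3 of 5 collecting duct markers were called lower. Of the endothelial and the stromal markers, 0 of 5 tested were called in each list, and all 5 stromal ones were negative (median −0.18). The part of any of these in the result was not tested. Aldh1a7 was higher in males (49.4 to 172 against 29.8 to 164; log2 fold change 0.76, SE 0.30, edgeR adjusted P = 0.0492). Aldh1a7 was no longer called in 20 of 31 alternatives, including each diet alone. Summed markers of the third proximal segment were higher in males, at 7104 to 10073 CPM against 1334 to 3761 CPM in females. Of these 5 markers, 3 were called higher and 1 lower in males, and their part in the Aldh1a7 values was not tested either.

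Rara was higher in males by 0.37 (SE 0.09, adjusted P = 0.00424 in edgeR), under the 1.5-fold threshold. In LP mice alone the difference was 0.63 (adjusted P = 0.00388) and in NP mice alone 0.12 (adjusted P = 0.624). Aldh1a1 differed by 0.41 (SE 0.27, adjusted P = 0.237) between the sexes, with 1.10 in NP mice and −0.26 in LP mice alone. Without LP female 3 it was 0.62 (adjusted P = 0.0409). Dhrs3 differed by −0.32 (SE 0.13, adjusted P = 0.0574). Rdh12 and Rarb had under 10 reads in some libraries. By an exact permutation within diets, Rdh12 was lower in males by 1.47 on the log2 scale (P = 0.00149) and Rarb by 0.76 (P = 0.0165). Both were called when a mean of 10 reads was enough.

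Over the 68 genes, 45 were tested between the sexes, of which 8 were called higher in males and 7 lower. Over all 12665 genes, 7.22% were called higher and 11.5% lower, so differences between the sexes were common throughout the transcriptome. Of 7 tested enzymes that oxidise retinol, 4 were called higher and 2 lower. Adh1, an alcohol dehydrogenase, was 4488 to 12192 in males and 577 to 1243 in females (log2 fold change 3.10, SE 0.21, adjusted P = 5.62e-09). It shares exon bases with an antisense transcript, and its main counts are 36.9% of the sum over strands. Adh7 followed with 2.97 (SE 0.32) and Stra6l, a receptor for the retinol carrier, with 1.29 (SE 0.19). Rdh16f2, a short-chain dehydrogenase, went the other way, at 563 to 1511 in males and 7406 to 12550 in females (−3.24, SE 0.21, adjusted P = 2.14e-09). Any reads that fit Rdh16f2 and a near copy of the same family equally well were left out of both. Cyp2s1 was lower in males by 0.90 (SE 0.10) on the log2 scale.

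**Figure D4:**
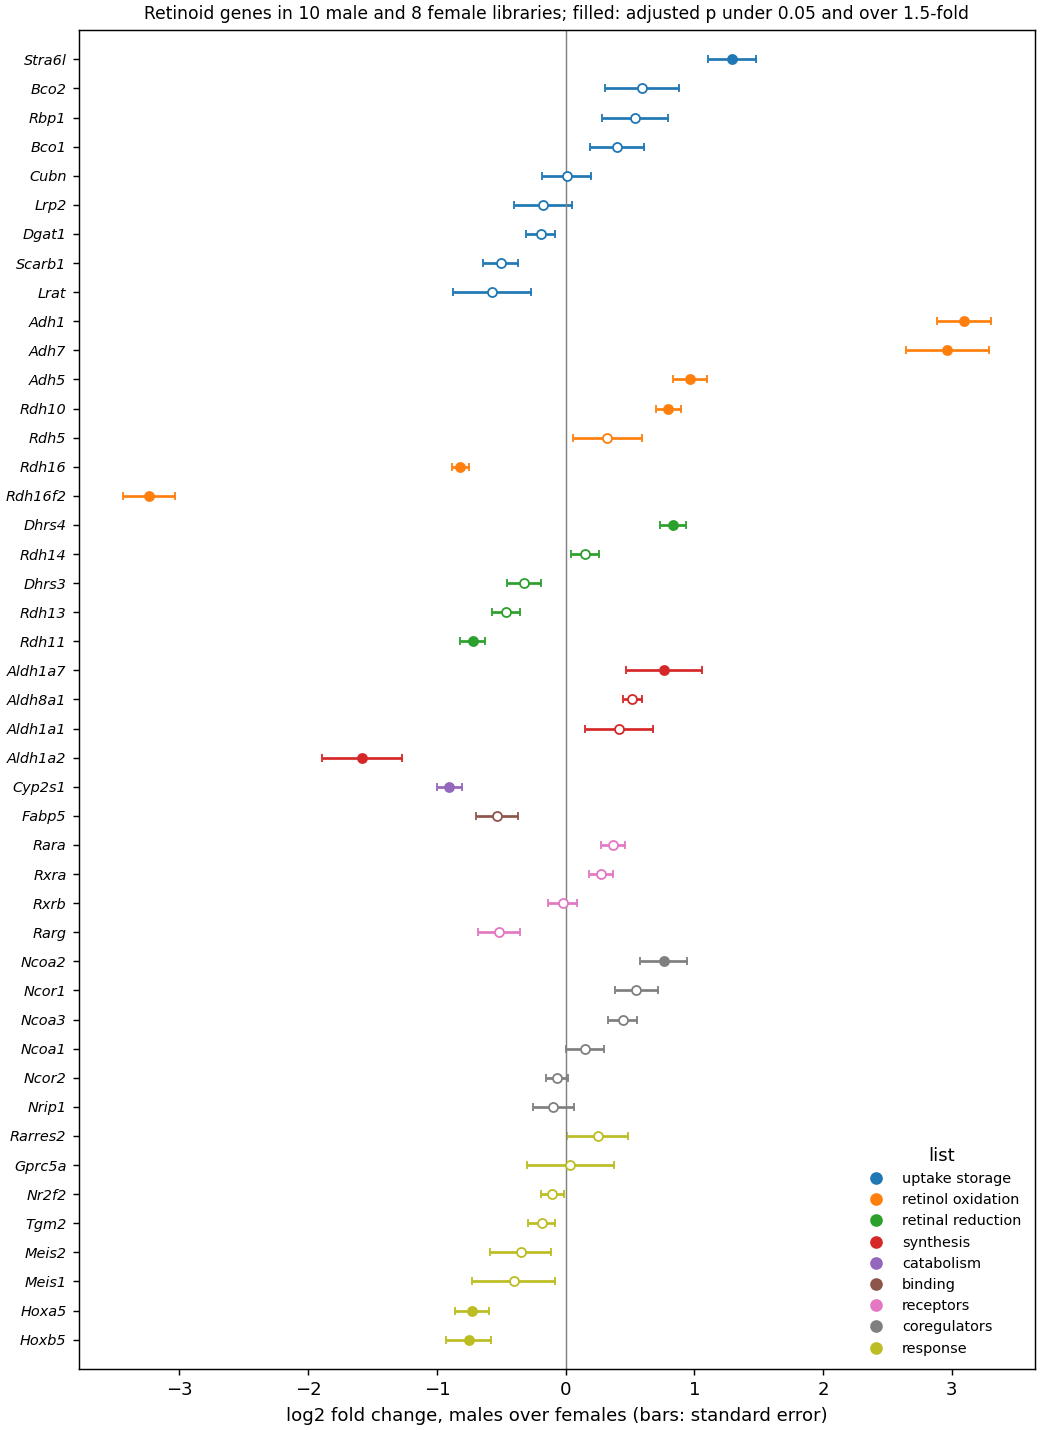
Log2 fold change of males over females for the 45 retinoid genes tested, as points with standard errors, coloured by role; filled points passed an adjusted P of 0.05 and 1.5-fold. Adh1 (3.10) and Adh7 (2.97) lie farthest to the right and Rdh16f2 (−3.24) farthest to the left, with Aldh1a2 at −1.58.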

How the data were processed

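Total kidney RNA of 18 mice was sequenced as non-directional poly(A) libraries. The authors aligned reads to GRCm39 with STAR and deposited counts per gene for each sample, 1 column without strand and 1 for each strand; the first was used here, as raw read counts. Rows for unmapped, multimapping, ambiguous or unassigned reads, 28.6 to 36.1% of reads, were left out. Of 78239 identifiers, 78168 matched the GENCODE vM39 annotation. Genes with at least 10 reads in every library compared were tested with edgeR 4.0.16 (TMM, quasi-likelihood, Benjamini-Hochberg over all genes tested), per sex, then for the interaction, and between sexes with diet as covariate. Called means an adjusted P under 0.05 and at least 1.5-fold, and for the interaction an adjusted P under 0.05 alone. Exact permutation tests were two-sided, on log2(normalized count + 1). DESeq2 1.42.0 and limma 3.58.1 were alternatives, and the code was tested on simulated counts. Sequences came from RefSeq promoters and the GRCm39 genome.

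The members and lists were chosen with earlier results of these data known. Named genes were the 9 members, list genes called, the highest per kilobase in each role, the 3 smallest diet P-values in each sex, the 3 largest sex differences each way and the nearest profiles, of which those of Rara are not all reported here. Same-numbered LP and NP mice did not deviate together (r from −0.297 to 0.327 in males and −0.607 to −0.388 in females), so numbers were not treated as pairs.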

Additional observations from a re-analysis of the deposited data

Results flagged for a closer look

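Of 27 sets of libraries, 1 for each gene in each group of 5, 3 held a value far from the others by Dixon's test; chance alone flags about 1 set in 20. Aldh1a3 was 286.65 normalized counts in LP male 4, against 51.3 or less in the other LP males. Rarb was 29.4 in the same library, against 21.5 or less. Rdh12 was 24.9 in NP male 2, against 9.4 or less in the other NP males. LP male 4 and NP male 2 were both among the 5 libraries with over 55 CPM of fat markers, and the part of those cells in the values was not tested.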

How the results depend on the processing

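In males Aldh1a1 was the 1 member called in 21 of 22 alternatives, and 0 members were called with all 4 groups in 1 model; leaving out single males kept the count at 1. With the replicate number as a block, which does not pair these mice, Aldh1a1 stayed called (adjusted P = 0.0217 in edgeR). In females and in the interaction 0 members were called under every alternative, including leave-one-out. Between the sexes 2 of the 5 members tested were called in the main test, 1 higher and 1 lower in males. Over all 12665 genes 7.22% were called higher and 11.5% lower. The count was 4 (with Rarb and Rdh12) without a filter on low counts, with filterByExpr, and with a mean count of 10 in edgeR or DESeq2. It was 1 (Aldh1a2) with DESeq2 size factors in edgeR, with the replicate block, in NP mice alone and without LP female 1, LP female 2 and NP female 3. Leaving out single mice gave 1 to 2: Aldh1a2 was called each time, Aldh1a7 stayed called without LP male 1, NP male 5, LP female 5 or NP female 3 and was lost without any other mouse, Aldh1a1 was called without LP female 3, and Rarb without NP male 1. No called value changed sign. Values that were not called did: among them, in females, Aldh1a2 (−0.59 to 0.41) and Rarb (−0.10 to 1.15) when single mice were left out, Rbp4 (0.05 without LP female 1, LP female 2 and NP female 3), and Aldh1a1 between the sexes (−0.26 in LP mice alone). Low read numbers limit Rbp4, Rdh12, Rarb and Aldh1a3. The DESeq2 test with a mean count of 10 and the fits without fat-marker libraries were chosen after seeing the data.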
